A study of Mus musculus with 10 samples.

Results

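The accessible sites described here are peaks annotated as intergenic and far from a transcription start site in an ATAC-seq comparison of naive CD4 T cells with and without Satb1. ATAC-seq uses a transposase to cut and tag open chromatin, and a peak is a stretch where such cuts pile up. Peaks were taken when the deposited annotation calls them distal intergenic, places them 50 kb or more from the nearest transcription start site and the count table gives them at least 100 counts summed over all libraries. This left 1918 of the 61571 annotated nuclear peaks. Without the count minimum 5114 peaks met the rule, and 16141 peaks were distal intergenic at any distance. The rule itself does not use the difference between the groups.

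Most of a mammalian genome's distal open sites are thought to be enhancers, insulators or sites that loops of chromatin bring close to promoters, and long stretches without genes can hold enhancers that act over large distances. Such gene deserts often flank genes that control development or immune cell identity. SATB1, a protein of developing and mature T cells that favours DNA rich in A and T, is known as an organiser of chromatin loops, so sites far from promoters are a natural place to look when it is removed. The gene nearest to a peak serves below only as a name, and being nearest does not show that a peak regulates it.

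The cells were CD3+CD4+CD25-CD44low/-CD62L+ naive T cells from spleen and lymph node, with 60000 cells per library. Every mouse had the genotype Satb1fl/fl x CD4-CreERT2wt/+, in which a tamoxifen-activated Cre recombinase is driven by CD4. The KO group holds 5 libraries from mice given tamoxifen (Sample_2268_KO to Sample_2272_KO) and the WT group 5 libraries from untreated mice of the same genotype (Sample_2273_WT to Sample_2277_WT). No WT library was exposed to tamoxifen, so deletion of Satb1 and exposure to the drug cannot be told apart. The labels give no age, sex or dose and do not tie libraries to separate mice, so the p-values reflect only how these 5 and 5 libraries vary, which may be technical. No peak here checks the deletion, because the labels do not say which stretch of Satb1 is floxed.

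In-peak totals ran from 673398 counts in Sample_2270_KO to 2184717 in Sample_2272_KO, and the median peak of the whole table held 5 to 17 counts per library. Between libraries of one group the counts differed by little more than sampling noise, with a chi-square per peak of 0.890 to 1.24, and for several pairs by less than it; between the groups it was 1.06 to 1.50. They were kept as 5 per group because in KO the pairs within noise do not form closed sets. In WT they come close to 2 sets, Sample_2273_WT with Sample_2276_WT and Sample_2277_WT, and Sample_2274_WT with Sample_2275_WT. The pair of Sample_2274_WT and Sample_2277_WT was borderline, with a chi-square per peak of 1.013. Merging libraries within noise into 3 KO and 2 WT libraries gave 103 far intergenic peaks higher and 32 lower. The counts reported below are 115 and 40. The merged fit called 2.57% of all tested peaks higher and 0.658% lower (3.23% in either direction). Promoters of all 9 CD4 T cell markers had a peak, with summed levels of 448 to 480 CPM (counts scaled to library size) in KO libraries and 437 to 481 in WT libraries. No promoter peak was found for any of 5 B cell markers. Erythroid, myeloid and NK cell markers had 1 of 3, 2 of 5 and 1 of 3, summed to 14.4 to 24.7 CPM in KO and 9.75 to 16.6 CPM in WT for erythroid, 8.91 to 18.3 and 12.7 to 19.7 CPM for myeloid and 4.75 to 12.1 and 6.73 to 9.82 CPM for NK cells. The defining markers Hbb-bt, Hbb-bs, Lyz2, Csf1r, Adgre1, Ncr1 and Klrb1c stood at 0. Of 2 CD8 markers Cd8b1 had a peak (18.3 to 28.8 CPM in KO, 21.9 to 27.3 in WT) and Cd8a none, and of 3 stromal markers Col1a1 and Pecam1 did (84.1 to 122 CPM in KO, 88.8 to 102 in WT) and Col1a2 did not. Ranges of KO and WT overlapped for every marker list with a peak, and the part of other cells in the results was not tested.

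The peaks did not all lie in empty stretches. RefSeq (GRCm38.p6) placed a gene over 411 of them (21.4%), a protein-coding gene over 64 and a long non-coding RNA gene over 338. Distance counted from a start site also lets a peak lie close to the far end of a long gene: 149 peaks lay outside coding genes but under 10 kb from one, and the median distance to the nearest coding gene body was 68.0 kb. The interval between the flanking coding genes had a median of 287 kb and reached 500 kb or more for 597 peaks. By the starts in the RefSeq promoter table, 964 of the 1918 peaks lay under 50 kb from a start and 875 lay 50 kb or more from every one, and the other 79 were on a chromosome without entries in that table. The name far intergenic, used below in place of gene desert, therefore stands for the deposited annotation and its start sites, not for distance from every gene. The distance to the nearest start site of that annotation ranged from 50.06 to 837.5 kb with a median of 87.0 kb, and 1022 peaks lay upstream and 896 downstream of it. The median width was 259 bp and the median summed count 191.5.

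A few of the peaks sit on the starts of RefSeq genes that the deposited annotation did not use as the nearest start. The 300-base RefSeq promoter windows, 250 bases before to 50 after a start, overlapped 46 of the 964 and 875 peaks that the table could place, all but 1 of which did not pass the test. Windows of 3 of these peaks are shown, chosen after their values were seen: the one that was called, one of the 6 strongest far peaks, and a strong one that was not called. Each is written 5′ to 3′ on the plus strand with the bases inside the peak in capitals.

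Gm19585 window, chr17:52149039-52149338: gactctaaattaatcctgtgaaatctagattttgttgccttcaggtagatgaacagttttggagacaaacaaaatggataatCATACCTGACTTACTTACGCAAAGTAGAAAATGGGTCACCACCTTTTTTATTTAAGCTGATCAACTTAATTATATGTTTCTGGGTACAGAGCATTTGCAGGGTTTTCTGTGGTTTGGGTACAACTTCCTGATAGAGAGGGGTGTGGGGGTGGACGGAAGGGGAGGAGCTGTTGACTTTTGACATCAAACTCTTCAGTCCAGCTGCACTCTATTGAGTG
D130051D11Rik window, chr15:85634346-85634645: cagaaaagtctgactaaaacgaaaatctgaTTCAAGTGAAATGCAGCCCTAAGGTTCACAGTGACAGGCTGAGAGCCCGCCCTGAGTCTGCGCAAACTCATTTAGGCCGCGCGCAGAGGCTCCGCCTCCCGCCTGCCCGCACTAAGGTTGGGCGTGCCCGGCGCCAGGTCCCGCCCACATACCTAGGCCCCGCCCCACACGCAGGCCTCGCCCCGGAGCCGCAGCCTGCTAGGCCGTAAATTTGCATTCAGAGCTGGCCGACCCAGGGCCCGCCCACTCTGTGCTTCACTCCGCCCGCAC
Gm33195 window, chr13:43864306-43864605: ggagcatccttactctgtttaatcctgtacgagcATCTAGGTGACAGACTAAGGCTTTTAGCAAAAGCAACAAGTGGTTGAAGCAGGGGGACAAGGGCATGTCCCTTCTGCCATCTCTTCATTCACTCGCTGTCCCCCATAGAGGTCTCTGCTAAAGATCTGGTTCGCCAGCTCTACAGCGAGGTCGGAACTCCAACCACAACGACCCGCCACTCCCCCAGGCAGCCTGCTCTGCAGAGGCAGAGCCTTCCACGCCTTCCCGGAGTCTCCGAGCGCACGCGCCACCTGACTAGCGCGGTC

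The Gm19585 window is 41% G and C, against 63.7% for D130051D11Rik and 57.3% for Gm33195, and a median of 53% over all 32544 distinct RefSeq promoter windows. Over the 58 distinct windows that overlap a far peak the median was 53.2%. These windows overlap only 46 peaks, and some nearly coincide, such as the Gm33195 windows that start at 43864305 and 43864306. The percentages below therefore count some sites more than once, and no difference between them was tested. The windows were searched on both strands for 12 short patterns. AP-1 (TGANTCA) was found in 10.3% of the 58 windows and 7.79% of all windows, the RUNX pattern TGTGGTT in 17.2% and 5.29%, the KLF pattern GGGNGTGG in 31.0% and 17.7%, and ETS (AGGAAG) in 44.8% and 35.1%. NFAT (TGGAAA) was found in 25.9% and 21.5%, forkhead (TGTTTNC) in 25.9% and 20.5%, TCF/LEF (CTTTGAT) in 6.90% and 3.73%, the GATA pattern AGATAA in 5.17% and 11.2%, STAT (TTCNNNGAA) in 1.72% and 8.33%, and the CTCF core AGGNGGC in 31.0% and 29.5%. CRE (TGACGTCA) was in none of the 58 windows and 1.80% of all, and the unwinding element AATATATTT in none and 0.375%. The KLF and RUNX patterns can share the letters GTGG. The Gm19585 window held 1 RUNX, 1 ETS and 2 KLF matches, the D130051D11Rik window 1 AP-1 match, and the Gm33195 window 1 RUNX, 1 KLF and 1 CTCF core match. A match describes the letters only and shows no binding.

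As a whole the far intergenic peaks held a similar share of all counts in both groups. They took 3.30, 3.24, 3.26, 3.53 and 3.37% of the in-peak counts in the KO libraries and 3.16, 3.47, 3.32, 3.15 and 3.31% in the WT libraries. The means were 3.34 ± 0.116% and 3.28 ± 0.132% (SD, n = 5), the ranges overlapped, and the difference of means was smaller than either SD. The median log2 fold change was 0.00, beside -0.01 over all 34208 peaks tested, and 965 of the 1918 peaks lay above 0.

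Single peaks did change, and more often upwards. By edgeR's quasi-likelihood test with Benjamini-Hochberg adjustment over all 34208 peaks tested, 115 far intergenic peaks rose in KO (6.0%) and 40 fell (2.09%) at an adjusted p under 0.05. Over all tested peaks 2.96% rose and 0.927% fell, 3.89% in either direction. At least a 2-fold rise was seen in 41 of the called peaks (2.14%, against 1.08% of all tested peaks), and a fall to 0.5-fold or less in 5 (0.261%, against 0.102%). The lowest KO library lay above the highest WT library in 92 peaks (4.80%, against 2.74% of all tested peaks) and the reverse held in 43 (2.24%, against 1.21%). Intergenic peaks nearer than 50 kb rose in 3.94% and fell in 1.10% of 5361, intronic peaks in 5.08% and 1.58% of 8439, and promoter peaks in 1.27% and 0.338% of 15963. The median summed counts of these classes were 183, 186 and 407, so the far peaks, at 191.5, had about the depth of the other distal classes and less than promoters. Whether the share in far peaks differs from the share in nearer or intronic peaks was not tested.

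DESeq2 called fewer far peaks, 61 higher and 9 lower, beside 1.50% and 0.167% of all tested peaks (1.67% in either direction), and limma-voom called 107 and 33, beside 2.82% and 0.743%, or 3.57% in either direction. All of the 61 and 9 were also called by edgeR. Called peaks changed by 1.27-fold to 13.8-fold upwards, with a median of 1.85-fold, and to between 0.403-fold and 0.803-fold downwards, with a median of 0.602-fold. Summed over the 115 called gains, the KO libraries held 3252 ± 158 CPM and the WT libraries 1784 ± 82.4 CPM, and over the 40 called losses 647 ± 31.1 and 1020 ± 57.3 CPM (SD, n = 5), a description of peaks picked by this same comparison. In bulk samples a wider opening in each cell and a larger share of cells with the site open cannot be told apart.

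**Figure D1:**
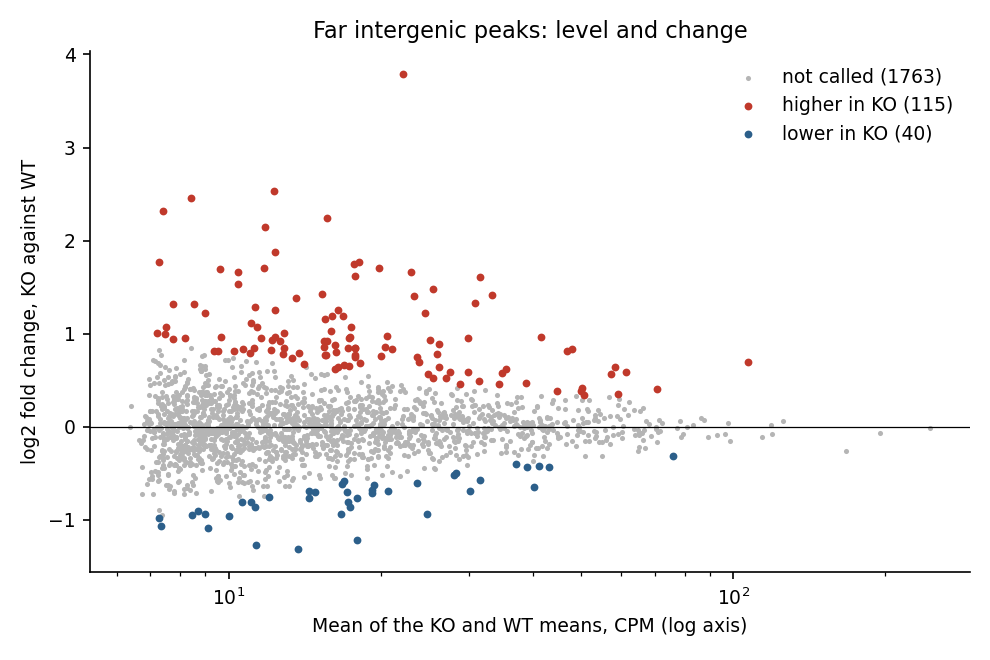
Each point is 1 of the 1918 far intergenic peaks, with the mean of the KO and WT means in CPM on a log x axis and the log2 fold change of KO against WT on the y axis. The 115 peaks that rose (red) reach a log2 fold change of 3.78 and the 40 that fell (blue) reach -1.31, and the 6 strongest peaks, at 119 to 245 CPM, are grey, not called.

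The largest gains were at sites below the median level in WT. At the 12 largest the WT means ran from 2.22 to 9.31 CPM, beside a median WT mean of 13.4 CPM over all far peaks, a description of peaks picked by this same comparison. The top one lay 101 kb downstream of the start of Tm2d1, which encodes a TM2 domain membrane protein, between that gene and Nfia (chr4:98282335-98282750). Its KO libraries had 45.0, 35.6, 40.2, 46.0 and 38.6 CPM and the WT libraries 3.27, 1.66, 0.525, 7.17 and 3.39 CPM. The lowest KO value was several times the highest WT value, and the means were a KO mean of 41.1 ± 4.39 CPM and a WT mean of 3.20 ± 2.52 CPM (SD, n = 5). The fitted rise was 13.8-fold (log2 change 3.78, SE 0.23, edgeR adjusted p = 1.19e-22). The next was 99.9 kb downstream of Trat1, an adaptor that associates with the T cell receptor, in the stretch between Morc1 and Trat1 (chr16:48671738-48672034). There levels were 18.5, 20.9, 28.5, 20.3 and 16.5 CPM in the KO libraries and 5.45, 2.22, 2.62, 4.30 and 3.39 CPM in the WT libraries. The groups did not overlap, and the peak rose 5.77-fold from 3.60 ± 1.31 to 21.0 ± 4.55 CPM (SD, n = 5; log2 change 2.53, SE 0.26, edgeR adjusted p = 4.82e-12).

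Maf, a transcription factor of helper T cell cytokine programmes, was the nearest gene of another of these gains, 199.8 kb downstream of its start and toward Wwox (chr8:115506750-115507126). Levels were 19.3, 22.0, 28.5, 30.5 and 28.1 CPM in the KO libraries and 5.45, 4.44, 3.15, 8.61 and 6.78 CPM in the WT libraries. No KO library was as low as any WT library, and the rise was 4.74-fold (log2 change 2.25, SE 0.22, edgeR adjusted p = 8.71e-13). The other 2 far peaks of Maf were not called by edgeR or DESeq2 and had unadjusted p over 0.05. The strongest promoter peak of Maf stood at a mean of 47.5 CPM over the KO libraries and 41.6 CPM over the WT libraries and was not called (edgeR adjusted p = 0.513).

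Il6st encodes gp130, the signalling subunit shared by receptors of the IL-6 family. The far peak assigned to it lay 75.5 kb upstream of its start but only 4.19 kb from the body of Ankrd55 (chr13:112388195-112388578). The KO libraries had 27.3, 30.3, 20.1, 35.3 and 24.1 CPM and the WT libraries 4.36, 9.43, 8.92, 5.74 and 11.5 CPM. Values spread widely within both groups but did not meet, and the peak rose 3.35-fold (log2 change 1.74, SE 0.20, edgeR adjusted p = 1.14e-10).

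The other gains among the 12 largest were next to genes of many kinds. They include the 3.42-fold gain near Zfp608, described below with the farthest peaks. Eef2kmt, a methyltransferase that acts on an elongation factor, had a peak 119 kb upstream of its start that rose 5.48-fold, from 2.22 to 14.6 CPM. Rises were 5.00-fold near Lcn4, a lipocalin gene, 4.43-fold near the ubiquitin ligase gene Znrf2, 3.67-fold near the non-coding E330011O21Rik and 3.41-fold near Ehd3, which acts in endocytic recycling. They were 3.27-fold near Tbl1xr1, a subunit of nuclear corepressor complexes, and 3.26-fold near Nab1, a corepressor of EGR factors. All 12 were picked as called peaks with the KO libraries above the WT libraries, so that separation was set by the choice. Their edgeR adjusted p values ran from 1.19e-22 to 1.65e-05. At the Ehd3 peak Sample_2273_WT had no count, and the other WT libraries had 2.71 to 4.99 CPM against 10.5 to 13.7 CPM in KO. All 12 remained called in each of the 24 alternative fits that held them. The peaks near Lcn4 and Ehd3 lay 3.53 kb and 8.37 kb from the bodies of other coding genes.

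**Figure D2:**
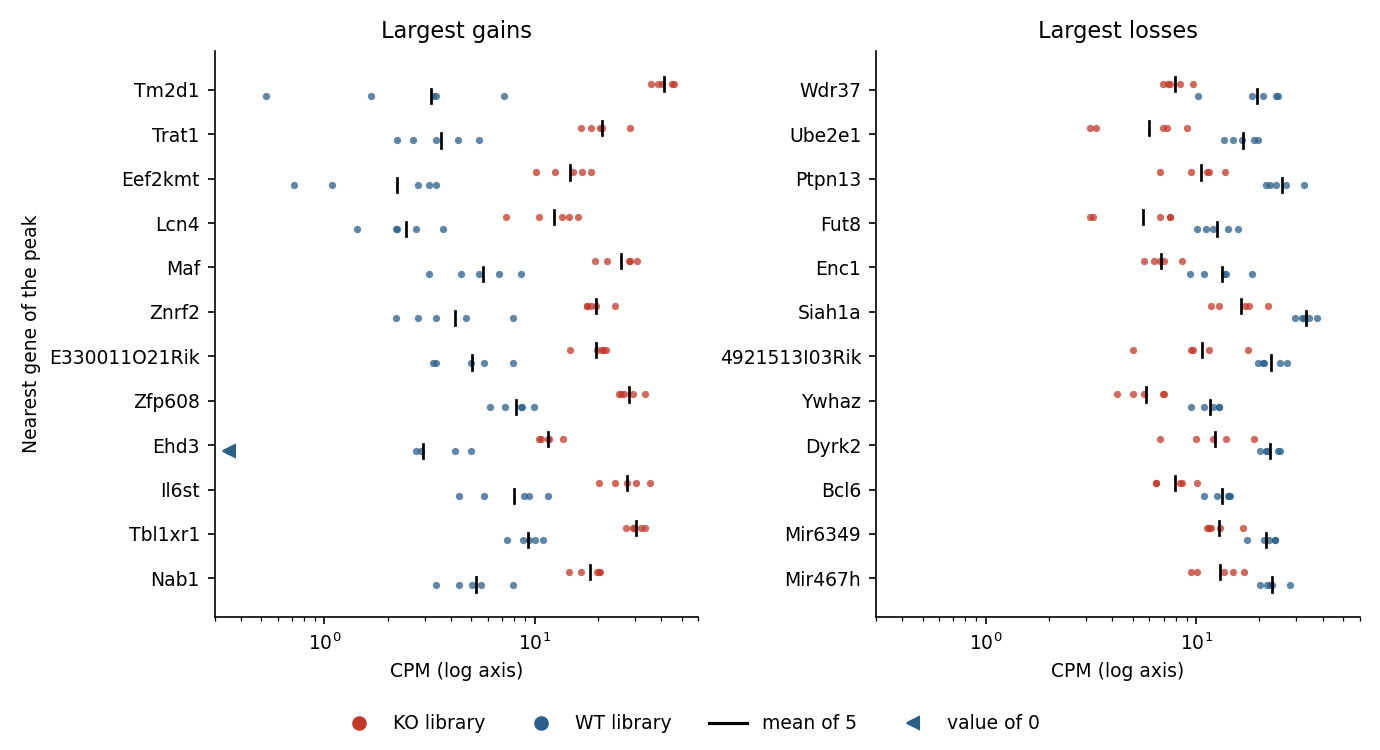
Every library's level in CPM (log x axis) at the 12 largest gains and the 12 largest losses with no overlap between groups, 1 peak per nearest gene, with KO above WT in each row. Black bars are means of 5 libraries and the triangle marks a value of 0 CPM in Sample_2273_WT at Ehd3. The WT points of the gains reach down to 0, whereas the KO points of the losses stay between 3.14 and 21.9 CPM.

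Losses were shallower and kept more signal. The largest was 87.7 kb downstream of Wdr37, a WD-repeat protein gene, and 15.0 kb from Adarb2 (chr13:8783732-8784077). Levels were 9.65, 7.32, 8.38, 6.95 and 7.52 CPM in the KO libraries and 20.7, 23.9, 18.4, 24.4 and 10.2 CPM in the WT libraries. The groups came close, with Sample_2277_WT at 10.2 CPM just above the highest KO library, and the level fell to 0.403-fold (log2 change -1.31, SE 0.23, edgeR adjusted p = 1.47e-05). A peak 176 kb upstream of Ube2e1, a ubiquitin-conjugating enzyme gene (chr14:18507698-18507973), also fell. There levels were 7.24, 3.14, 3.35, 6.95 and 9.03 CPM in the KO libraries and 19.6, 18.9, 13.6, 16.5 and 14.9 CPM in the WT libraries. The KO range ended well under the WT range, and the fall was to 0.415-fold (log2 change -1.27, SE 0.24, edgeR adjusted p = 7.97e-05).

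A peak 57.7 kb upstream of Ptpn13, a tyrosine phosphatase gene, and one 51.7 kb upstream of Siah1a, a ubiquitin ligase gene, fell to 0.429-fold and 0.521-fold. At Ptpn13 (chr5:103367054-103367509) the KO libraries had 13.7, 9.41, 6.70, 11.2 and 11.5 CPM and the WT libraries 24.0, 32.7, 26.8, 21.5 and 22.4 CPM. At Siah1a (chr8:86797716-86798072) the KO libraries had 12.9, 17.8, 11.7, 21.9 and 17.0 CPM and the WT libraries 32.7, 37.7, 29.4, 34.4 and 31.9 CPM. Both pairs of groups were apart by more than 7 CPM (edgeR adjusted p = 6.46e-07 and 3.67e-06). These 2 peaks and those near Wdr37 and Ube2e1 stayed called in every alternative fit that held them.

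The remaining 8 of the 12 largest losses were to 0.472-fold near Fut8, which adds core fucose to glycoproteins, 0.517-fold near Enc1, an actin-associated protein gene, and 0.522-fold near the non-coding 4921513I03Rik. They were to 0.534-fold near Ywhaz, a 14-3-3 protein gene, 0.551-fold near the kinase gene Dyrk2, 0.571-fold near Bcl6, the repressor that directs follicular helper T cells, 0.571-fold near Mir6349 and 0.590-fold near Mir467h. The peak assigned to Dyrk2 lies between Ifng and Dyrk2. DESeq2 called 7 of the 12 and not the peaks of Fut8, Enc1, Ywhaz, Bcl6 and Mir467h, with adjusted p from 0.0559 to 0.246. Each of these 8 calls ended when all libraries were thinned to the smallest total. The Enc1 call ended without Sample_2275_WT (adjusted p 0.0956), the Ywhaz call without Sample_2268_KO, Sample_2269_KO, Sample_2275_WT, Sample_2276_WT or Sample_2277_WT (adjusted p 0.051 to 0.0573), and the Bcl6 call without Sample_2268_KO, Sample_2271_KO, Sample_2274_WT, Sample_2276_WT or Sample_2277_WT (adjusted p 0.0525 to 0.119), all by edgeR.

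The strongest far peaks did not pass the test. The strongest of all was 64.1 kb downstream of Zfp958, a zinc finger gene (chr8:4677299-4678712). Its KO libraries had 247, 227, 268, 236 and 241 CPM and the WT libraries 257, 247, 223, 254 and 247 CPM. The groups overlapped throughout, at a KO mean of 244 ± 15.4 CPM and a WT mean of 246 ± 13.3 CPM (SD, n = 5), and the fitted ratio was 0.990 (edgeR adjusted p = 0.972). A peak 56.4 kb upstream of Arid1a, a subunit of the BAF chromatin remodeller, had a KO mean of 189.7 ± 20.1 CPM and a WT mean of 201 ± 31.6 CPM (SD, n = 5). The peak on the start of D130051D11Rik, printed above and nearest to the ligand gene Wnt7b, had a KO mean of 153 ± 22.8 CPM and a WT mean of 181 ± 44.3 CPM (SD, n = 5). Its WT libraries ranged from 124 to 241 CPM, and its fitted ratio of 0.838 (edgeR adjusted p = 0.232) passed when Sample_2275_WT was left out (log2 fold change -0.38, adjusted p 0.0202). The peaks near A930005H10Rik, 4930459C07Rik and Pisd had KO means of 115 to 129 CPM, WT means of 118 to 123 CPM and ratios of 0.947 to 1.04. Per 100 bp of width these 6 peaks held 13.1 to 21.9 CPM, against a median of 5.52 over all far peaks. The peak on the start of Gm33195, also printed above and nearest to Cd83, a surface protein of activated lymphocytes, had a KO mean of 67.1 ± 6.90 CPM and a WT mean of 74.3 ± 7.03 CPM (SD, n = 5) and did not pass.

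The share of called peaks went up with distance for gains. Gains made up 5.10% of the 706 peaks at 50 to 75 kb, 5.56% of 450 at 75 to 100 kb, 5.92% of 524 at 100 to 200 kb, 8.99% of 178 at 200 to 400 kb and 11.7% of 60 beyond 400 kb. Losses made up 1.70, 2.67, 1.91, 2.81 and 1.67%, with no order. The farther peaks were also somewhat stronger, with median summed counts of 226.5 at 200 to 400 kb and 225.5 beyond, against 183.5 to 189 in the nearer bins. Among the peaks with summed counts above the median, gains made up 13.5% of 141 peaks at 200 kb or more and 7.09% of 818 nearer ones. Among the others they made up 4.12% of 97 and 3.94% of 862. The share of 13.5% rested on 19 peaks, and neither difference was tested.

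Wider and stronger peaks were called more often. Among the narrowest of 4 width classes (68 to 197 bp, 484 peaks) 1.24% rose and 0.413% fell, in the second 3.78 and 1.68%, in the third 7.11 and 2.51%, and in the widest (361 to 1491 bp, 480 peaks) 11.9 and 3.75%. The median summed counts of these width classes were 122, 158, 231 and 440.5, so width and counts rose together and their parts were not told apart. By summed count, 2.64% rose in the lowest of 4 classes (100 to 133 counts), 5.35% in the second, 8.56% in the third and 7.50% in the highest (318 to 3433 counts). The lowest class held 13 gains, 8 of them at least 2-fold, and the highest held 36, of which 5 were. Low counts limit what such a class can show, since a small change passes only at high counts.

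**Figure D3:**
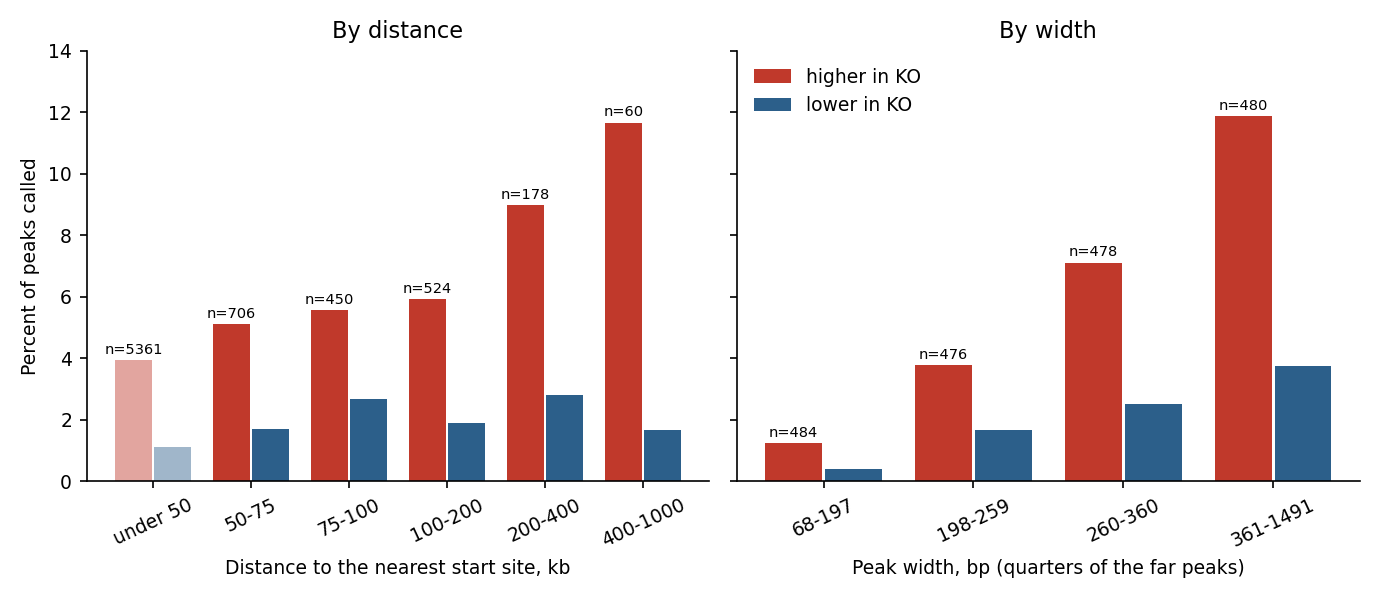
Percent of peaks called higher (red) or lower (blue) in KO, by distance to the nearest start site in kb (left, with intergenic peaks under 50 kb in pale bars) and by 4 classes of peak width in bp (right), with the number of peaks in each bin above the red bars. Red bars climb from 3.94% to 11.7% with distance and from 1.24% to 11.9% with width, and blue bars stay under 4%. The median summed count climbed as well, from 122 in the narrowest class to 440.5 in the widest.

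By the length of the interval between coding genes, which can hold non-coding genes, the share of gains was higher only from 500 kb on. No difference between these lengths was tested. Gains made up 5.09% of 216 peaks in intervals under 100 kb between coding genes, 4.73% of 465 at 100 to 200 kb, 4.87% of 575 at 200 to 500 kb, 7.21% of 402 at 500 to 1000 kb and 10.3% of 195 in longer ones. In the longest class 122 of the 195 peaks lay above 0, with a median log2 fold change of 0.07 and 10 gains of at least 2-fold. Peaks 50 kb or more from every coding gene body rose in 6.75% and fell in 2.54% of 1260, and those outside but under 10 kb from one rose in 6.04% of 149. Peaks over a RefSeq gene rose in 5.35% and fell in 1.95% of 411, and the others in 6.17 and 2.12% of 1507. Those under 50 kb from a start in the RefSeq promoter table rose in 4.88% and fell in 2.49% of 964, and those at 50 kb or more in 7.20 and 1.26% of 875, a difference that was not tested. Upstream peaks rose in 6.46% and downstream peaks in 5.47%. By chromosome, gains were 12 of 106 peaks on chromosome 16, 4 of 33 on 19 and 4 of 30 on X, but 0 of 52 on 11 and 5 of 147 on 10. Over all far peaks 6.0% rose, and over all tested peaks 2.96%. Chromosome 18 held 5 gains and 5 losses among 79. These chromosomes were picked after their values were seen, and no difference between chromosomes was tested.

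The 4 called peaks farthest from a start site all rose, and 2 of them belong to Zfp608, a zinc finger gene. The farther Zfp608 peak lay 689 kb upstream of its start (chr18:55681430-55681809). Levels were 25.7, 33.5, 25.1, 29.4 and 26.6 CPM in the KO libraries and 8.73, 7.21, 9.97, 8.61 and 6.10 CPM in the WT libraries. The nearer one lay 557 kb upstream (chr18:55549774-55550369). There levels were 44.2, 47.1, 46.9, 50.3 and 53.1 CPM in the KO libraries and 18.5, 18.3, 19.9, 15.1 and 19.7 CPM in the WT libraries. Neither peak had an overlap between groups, and they rose 3.42-fold and 2.67-fold (edgeR adjusted p = 1.22e-11 and 4.09e-14). Both lie in a stretch of 1394.9 kb between Zfp608 and Gramd3. The strongest promoter peak of Zfp608 stood at a mean of 8.40 CPM over the KO libraries and 6.84 CPM over the WT libraries and was not called.

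The other far calls were less firm. A peak 538 kb upstream of Klf4, a transcription factor that restrains proliferation in many cells, rose 1.53-fold (edgeR adjusted p = 0.0416), with KO libraries at 13.6 to 25.7 CPM and WT libraries at 9.97 to 16.1 CPM, which overlap. Its call ended without Sample_2268_KO, Sample_2271_KO, Sample_2272_KO, Sample_2273_WT, Sample_2275_WT, Sample_2276_WT or Sample_2277_WT (adjusted p 0.0583 to 0.192). A peak 492 kb upstream of Cntn5, a neuronal adhesion gene, rose 1.78-fold (edgeR adjusted p = 0.014), and its call ended without Sample_2272_KO, Sample_2273_WT or Sample_2277_WT (adjusted p 0.0557 to 0.113). DESeq2 called neither. The farthest peak of all, 838 kb upstream of Vwc2, had a KO mean of 8.76 ± 3.92 CPM and a WT mean of 9.04 ± 1.09 CPM (SD, n = 5) and did not pass. Just inside the 50 kb limit, peaks at 50060 bp from Znrf2 and 50080 bp from Irf2bpl had ratios of 0.913 and 1.15. Just outside, peaks at 49986 bp from 4930413G21Rik and 49955 bp from 4933405E24Rik had 1.12 and 0.502. The peak near 4933405E24Rik was a called loss (edgeR adjusted p = 0.00842) that the limit left out. Peaks at the count minimum of 100, near 4930429D17Rik and Daam1, had ratios of 0.999 and 1.22, and those just under it, with 99 counts near 1700064J06Rik and Rras2, 1.28 and 1.13.

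Named by their nearest genes, far peaks of T cell transcription factor genes numbered 65, at 16 of the 52 genes listed. Of these 5 rose (7.69%) and 2 fell (3.08%), and the median log2 fold change was 0.01. Over all far peaks 6.0% rose and 2.09% fell, and over all tested peaks 2.96% and 0.927%. No difference between a list and the other peaks was tested. The 5 gains were those of Maf and Zfp608, given above, and 1 each of Gata3 and Satb1, and both losses were of Bcl6. The Gata3, Satb1 and second Bcl6 peaks are named after their values were seen. The Gata3 peak lay 128 kb downstream of that gene, the regulator of Th2 cells (chr2:9749926-9750296). Its KO libraries had 20.9, 17.8, 25.1, 24.6 and 20.1 CPM and the WT libraries 4.36, 10.5, 9.44, 12.2 and 14.2 CPM. It rose 2.04-fold without overlap (log2 change 1.03, SE 0.20, edgeR adjusted p = 0.000127). The 10 far peaks of Lef1, 7 of Bach2, 6 of Runx1, 4 of Runx3 and 3 of Foxo1, all genes of T cell factors, did not pass by edgeR or DESeq2. An unadjusted edgeR p under 0.05 was found for 3 of the Lef1 peaks and 1 of the Runx1 peaks.

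The far peak of Satb1 itself lay 100.4 kb downstream of its start but only 3.26 kb past the body of the gene (chr17:51732582-51732928). The KO libraries had 41.0, 31.4, 38.5, 33.7 and 29.6 CPM and the WT libraries 10.9, 17.8, 14.2, 13.6 and 14.2 CPM. It rose 2.33-fold without overlap (edgeR adjusted p = 6.91e-09). The promoter peak of Satb1 stood at a mean of 61.9 CPM over the KO libraries and 59.7 CPM over the WT libraries, a difference that was not called (edgeR adjusted p = 0.913).

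Far peaks of genes for T cell surface molecules, homing and signalling numbered 89, at 22 of 47 genes. Of these 6 rose (6.74%) and 1 fell (1.12%), with a median log2 fold change of 0.04. The shares were 6.0% and 2.09% over all far peaks and 2.96% and 0.927% over all tested peaks. The largest gain was 113 kb upstream of Cxcr4, the chemokine receptor for CXCL12 (chr1:128705077-128705587). Levels were 36.2, 30.3, 36.9, 41.7 and 29.1 CPM in the KO libraries and 10.9, 12.8, 7.87, 11.5 and 12.2 CPM in the WT libraries. The groups were far apart, and the rise was 3.17-fold (log2 change 1.66, SE 0.17, edgeR adjusted p = 2.54e-12), while the other 7 far peaks of Cxcr4 did not pass by edgeR or DESeq2, 1 of them with an unadjusted edgeR p under 0.05.

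S1pr1, the receptor that lets T cells leave lymphoid organs, had a far peak 85.8 kb upstream of its start that rose 1.91-fold (chr3:115800881-115801210). The KO libraries had 33.0, 33.5, 31.8, 37.4 and 29.1 CPM and the WT libraries 17.5, 16.6, 17.3, 14.3 and 20.3 CPM. No KO library fell to the WT range (edgeR adjusted p = 2.22e-06). Here the promoter peak rose as well, with means of 55.4 CPM over the KO libraries and 39.7 CPM over the WT libraries (log2 change 0.45, edgeR adjusted p = 0.00504). A peak near Sesn3, a stress-response gene, rose 1.51-fold without overlap (edgeR adjusted p = 0.00287, DESeq2 0.0926). The other gains were of Rgs1, a regulator of chemokine receptor signalling (1.68-fold), the integrin gene Itga4 (1.75-fold) and the costimulatory receptor gene Cd28 (1.93-fold), and the loss was of Arl4c (0.619-fold), all named after their values were seen. By edgeR the Rgs1 call ended without Sample_2272_KO (adjusted p 0.0671), the Arl4c call without Sample_2271_KO (adjusted p 0.0845), the Itga4 call without Sample_2268_KO, Sample_2269_KO, Sample_2271_KO, Sample_2273_WT, Sample_2274_WT, Sample_2275_WT or Sample_2277_WT (adjusted p 0.0523 to 0.194) and the Cd28 call without Sample_2268_KO, Sample_2272_KO, Sample_2273_WT, Sample_2274_WT, Sample_2275_WT or Sample_2277_WT (adjusted p 0.0583 to 0.141). DESeq2 called none of these 4 (adjusted p = 0.0872, 0.139, 0.351 and 0.244 in that order), and limma-voom did not call the Itga4 peak. The genes of this list with the most far peaks were Trib2, a pseudokinase gene, with 16, and Btg1, an antiproliferative gene, with 15. None of these passed by edgeR or DESeq2, and 3 and 1 of them had an unadjusted edgeR p under 0.05.

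Cytokine and cytokine receptor genes had 11 far peaks, at 6 of 32 genes, with a median log2 fold change of 0.27. The Il6st peak was the one called, a share of 9.09% higher, beside 6.0% of all far peaks and 2.96% of all tested peaks. The 6 far peaks of Fasl, a death ligand, included 1 with no overlap (13.8 ± 1.47 against 9.29 ± 1.52 CPM, SD, n = 5, edgeR adjusted p = 0.223) and 1 close to the threshold (0.0522), which passed when Sample_2273_WT was left out (adjusted p 0.0240). Genes of nervous system and embryo patterning, which often flank gene deserts, had 12 far peaks at 4 of 96 genes. Only 1 of them was called (8.33% lower, beside 2.09% of all far peaks and 0.927% of all tested peaks). That peak, 92.9 kb downstream of Tshz1, a zinc finger gene of development, fell to 0.622-fold. Its KO libraries had 25.7, 14.6, 28.5, 21.9 and 25.1 CPM and the WT libraries 33.8, 38.8, 36.7, 38.0 and 37.3 CPM. Every KO library was lower (edgeR adjusted p = 0.000217), and thinning to the smallest total ended the call.

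Genes grouped as non-coding or predicted by symbol alone, such as those starting Gm or ending Rik, were nearest to 484 far peaks. Of these peaks 37 rose (7.64%) and 8 fell (1.65%). Some of these genes, such as 4933412E24Rik, are protein-coding in RefSeq. All remaining genes were nearest to 1257 far peaks, of which 66 rose (5.25%) and 28 fell (2.23%). Over all far peaks 6.0% rose and 2.09% fell, and over all tested peaks 2.96% and 0.927%. The difference between the 2 groups of genes was not tested. Beside E330011O21Rik, the calls with the smallest adjusted p in the group picked by symbol were near Gm29686 and Gm8989. The Gm29686 peak was 2.79-fold higher, in the stretch between Ccdc54 and Cblb, and the Gm8989 peak 3.07-fold higher, between Gvin1 and Gm1966. Their edgeR adjusted p values were 1.52e-11 and 1.98e-09.

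Far peaks fell into 677 intervals between coding genes, with a median of 2 and at most 24 peaks each, and 120 intervals held a called peak. In 6 intervals at least 3 peaks were called, and the 5 described here are named because of that count, after the calls were known. Between Satb1 and Kcnh8, a potassium channel gene, 3 of 14 peaks rose and 10 of 14 lay above 0. The largest rise, 2.66-fold, was 95.5 kb upstream of Kcnh8 (chr17:52506808-52507175). Levels were 49.1, 30.3, 31.8, 30.5 and 28.6 CPM in the KO libraries and 10.9, 11.1, 12.1, 17.9 and 10.8 CPM in the WT libraries. The groups did not overlap, though Sample_2268_KO stood above the other KO libraries (edgeR adjusted p = 1.52e-09). The other gains lay 12929 bp apart in the long non-coding gene Gm19585. One of them is the peak over the start of that gene printed above (chr17:52149121-52149473), where the KO libraries had 26.5, 30.3, 36.9, 21.9 and 23.6 CPM and the WT libraries 13.1, 15.0, 8.92, 19.4 and 10.2 CPM, a rise of 1.97-fold without overlap. The other is among the strongest called far peaks, at a KO mean of 133 ± 11.8 CPM and a WT mean of 80.2 ± 6.63 CPM (SD, n = 5), and rose 1.62-fold (edgeR adjusted p = 1.3e-08).

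Between Id2, an inhibitor of E proteins, and Rnf144a 3 of 17 peaks rose, by 2.44-fold, 2.28-fold and 1.96-fold, while the median log2 fold change was 0.03 and 10 of 17 lay above 0. Thinning to the smallest total ended the first 2 of these calls. Between Setbp1, a SET-binding protein gene, and Gm36718 3 of 8, all nearest to Setbp1, rose, by 2.10-fold, 1.78-fold and 1.61-fold. The groups overlapped at all 3, and by edgeR the first call ended without Sample_2271_KO or Sample_2275_WT (adjusted p 0.0577 to 0.116) and the last without Sample_2271_KO, Sample_2272_KO or Sample_2277_WT (adjusted p 0.0525 to 0.109). DESeq2 did not call these 2 (adjusted p = 0.18 and 0.206), and thinning ended all 3 calls.

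A run of losses lay between Sall3, a developmental zinc finger gene, and Galr1, where 4 of 11 peaks fell and 1 of 11 lay above 0, with a median log2 fold change of -0.36. The peak 224 kb upstream of Sall3 had KO libraries at 20.1, 19.9, 21.8, 26.2 and 23.6 CPM and the WT libraries 43.6, 31.1, 33.1, 33.0 and 27.8 CPM. Every KO library was below every WT library, and the fall was to 0.701-fold (edgeR adjusted p = 0.0162). The others fell to 0.622-fold, 0.625-fold and 0.744-fold (edgeR adjusted p = 0.0307, 0.0142 and 0.0214). None of the 4 was called by DESeq2, and each edgeR call ended when 1 library was left out. The first ended without Sample_2268_KO or Sample_2273_WT (adjusted p 0.0608 to 0.0737). The second ended without Sample_2268_KO, Sample_2270_KO, Sample_2272_KO or Sample_2275_WT (adjusted p 0.0509 to 0.294). The third, nearest to Mir5127, ended without Sample_2268_KO, Sample_2271_KO or Sample_2274_WT (adjusted p 0.0646 to 0.128) and the fourth without Sample_2269_KO, Sample_2272_KO or Sample_2273_WT (adjusted p 0.0778 to 0.13). Of these, 3 are far peaks of Sall3, which had 5 in all, with a median log2 fold change of -0.43. Between Bcl6 and Lpp the calls went both ways: 2 of 9 peaks fell, to 0.571-fold and 0.669-fold, and 1 rose 1.94-fold. The second Bcl6 call ended without Sample_2268_KO, Sample_2270_KO, Sample_2271_KO, Sample_2274_WT, Sample_2275_WT, Sample_2276_WT or Sample_2277_WT (adjusted p 0.0519 to 0.202) and the Lpp call without Sample_2272_KO, Sample_2274_WT or Sample_2276_WT (adjusted p 0.0575 to 0.149), by edgeR. DESeq2 called none of the 3 peaks (adjusted p = 0.246, 0.361 and 0.222), and thinning ended each call. The second Bcl6 call also ended with limma-voom (adjusted p 0.0528), total count scaling (0.0516), scaling on promoter peaks (0.0526), merged libraries (0.0946) and without the 3 lowest totals (0.0725).

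**Figure D4:**
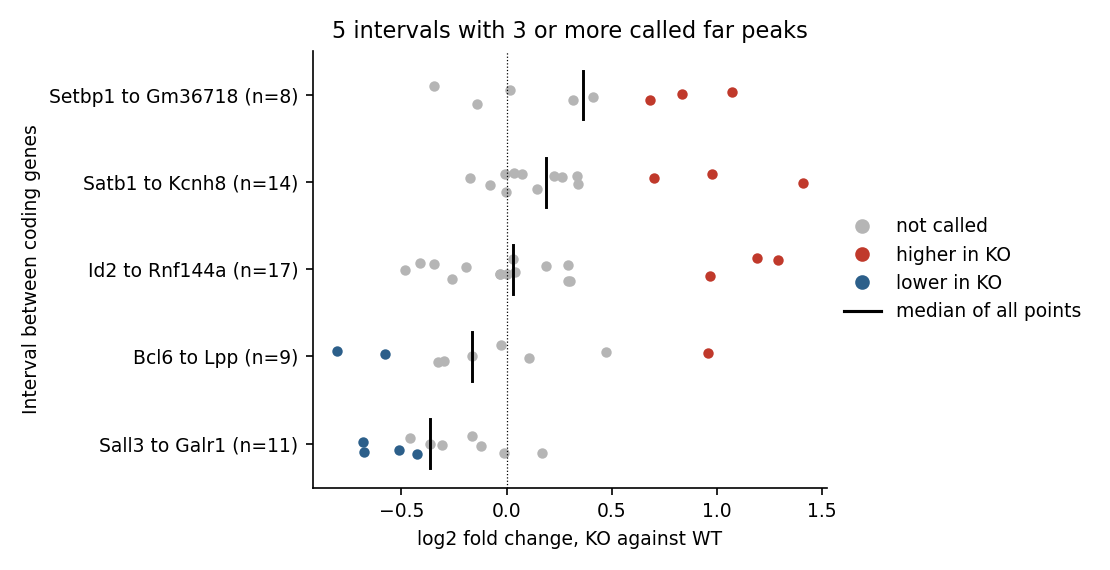
Log2 fold change of KO against WT (x axis) for every far intergenic peak in 5 of the 6 intervals that hold 3 or more called peaks, 1 row per interval, with red and blue points for peaks called higher and lower, grey for the rest and a bar at the median. The Sall3 to Galr1 row lies left of 0 except for 1 peak, and the Satb1 to Kcnh8 row has 3 red points between 0.70 and 1.41.

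A few called far peaks lay close together. In all, 12 pairs of them lay within 25 kb of each other, of which 6 pairs rose together, 2 fell together and 4 went opposite ways. The closest pair that rose together, near Akap11, a scaffold of protein kinase A, lay 163 bp apart (chr14:78458579-78458947 and chr14:78459111-78459622). The first had a KO mean of 22.0 ± 5.14 CPM and a WT mean of 8.65 ± 1.97 CPM (SD, n = 5) and the second a KO mean of 47.7 ± 5.66 CPM and a WT mean of 15.2 ± 3.33 CPM (SD, n = 5), rises of 2.69-fold and 3.04-fold with no overlap between groups. The closest opposite pair lay 3447 bp apart near Zswim2, where one peak fell to 0.551-fold and the next rose 1.93-fold (edgeR adjusted p = 0.0118 and 0.00371). The fall there was no longer called without Sample_2277_WT (adjusted p 0.0696), and DESeq2 called neither (adjusted p = 0.123 and 0.0557). These pairs were picked by their distance after the calls were known.

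Taking all other tested peaks near a far peak, of any class, those under 5 kb from a called gain had a median log2 fold change of 0.19 over 69 peaks, and 8 of them rose (11.6%). Called far peaks count among these neighbours, so each peak of a close called pair is a neighbour of the other. The 8 risen peaks under 5 kb from a called gain are such pairs, near 4930487H11Rik, Akap11, Setbp1 and Mir129-1. At 5 to 25 kb the median was 0.03 over 133 peaks, and 3.01% rose. At 25 to 100 kb it was 0.03 over 529 peaks, and 7.37% rose, so the share did not fall steadily with distance. Under 5 kb from a called loss the median was -0.15 over 19 peaks, with 2 higher and 2 lower. At 5 to 25 kb it was -0.09 over 55 peaks, with 4 lower (7.27%) and 2 higher, and at 25 to 100 kb 0.00 over 212 peaks, with 1 lower and 13 higher. Beside far peaks that were not called, 5.40% of 1112 neighbours under 5 kb rose and 1.62% fell, and at 5 to 25 and 25 to 100 kb 5.90 and 5.31% rose. None of these differences was tested.

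Over all promoter peaks 1.27% rose and 0.338% fell, and the promoters of the nearest genes are read beside that. Of the 115 gains 73 had a nearest gene with a tested promoter peak, at 63 genes. For 1 of these 73 gains that promoter peak was higher by edgeR, that of S1pr1, a share close to that of all promoters, and for none by DESeq2, while for 4 it had an unadjusted edgeR p under 0.05. Of the 40 losses 27 had one, at 26 genes, and none was called by edgeR or DESeq2, with 2 at an unadjusted edgeR p under 0.05. The median log2 fold change of these promoters was 0.03 beside gains and -0.01 beside losses. Beside far peaks that did not pass, 14 of 1128 promoter values were higher and 1 was lower.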

How the data were processed

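From ATAC-seq reads (75 bp, single) of 10 libraries the authors made 1 deposited table of raw counts per peak and 1 of peak positions with nearest genes. Bowtie2 2.3.5, MACS2 2.1.2, ChIPseeker 1.18.0 and build mm10 are named in the submitters' processing notes. Read shifting, duplicate removal and whether peaks were called on pooled libraries are not given in the sources used here, and each can move counts at weak peaks.

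All 34208 peaks with a summed count of at least 100 were fitted with edgeR 4.0.16 (quasi-likelihood test, TMM factors, R 4.3.3), with p-values adjusted over all of them by Benjamini-Hochberg and calls at an adjusted p under 0.05. CPM are TMM-scaled, folds are fitted, and the SE is the log2 fold change over the root of F. Groups do not overlap where all KO libraries lie on 1 side of all WT libraries in log2 CPM (prior count 2). Alternatives were DESeq2 1.42.0, limma-voom (limma 3.58.1), other scalings and minimums, thinning, merging, and leaving out libraries.

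Members and gene lists were chosen with earlier results of these data known. Peaks named by rule were the 12 largest called changes per direction without overlap (1 per gene), the 6 strongest, the 4 farthest called, the farthest, up to 3 per list by adjusted p, genes with 3 called peaks, and those beside the thresholds. RefSeq (GRCm38.p6) named 443 peaks without a deposited symbol, and the promoter windows are RefSeq sequences. Sequences of the peaks themselves are not analysed here, and 1 interval with called peaks is not reported here.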

Additional observations from a re-analysis of the deposited data

Results flagged for a closer look

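In 7 of 134 groups of 5 libraries, 1 library stood apart from the other 4 of its group by Dixon's criterion, where chance gives about 1 in 20. The groups were those of the share of counts and of 66 far intergenic peaks, named by rule or called in an interval with 3 or more calls.

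Among KO libraries, Sample_2269_KO had 14.6 CPM at the gain near E330011O21Rik, where the other KO libraries had 19.8 to 21.8 CPM. At the gain near Kcnh8, Sample_2268_KO had 49.1 CPM and the other KO libraries 28.6 to 31.8 CPM. At the strong peak near A930005H10Rik, Sample_2270_KO had 158 CPM and the others 115 to 127 CPM.

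Among WT libraries, Sample_2276_WT stood apart 3 times. It had 17.9 CPM at the Kcnh8 peak, where the others had 10.8 to 12.1 CPM, 3.59 CPM at a gain near Mir3970, where the others had 7.34 to 8.88 CPM, and 107 CPM at the Pisd peak, where the others had 124 to 131 CPM. Sample_2273_WT had 13.1 CPM at the peak near 4930429D17Rik and the others 5.02 to 7.34 CPM. The called gains near E330011O21Rik, Kcnh8 and Mir3970 stayed called without each of the 10 libraries in turn.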

How the results depend on the processing

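The count of far intergenic peaks called higher, 115 by edgeR, was 61 with DESeq2, 74 with a summed count of at least 200, 54 with every library thinned to the smallest total, 198 from 25 kb outwards and 54 from 100 kb outwards. The count called lower, 40, was 9, 26, 13 and 16 under DESeq2, the higher minimum, thinning and the 100 kb limit. The higher minimum and the 25 kb and 100 kb limits change which peaks are counted, so those counts are not out of 1918. DESeq2 called 1.50% of all tested peaks higher and 0.167% lower. That share is not given for the thinned, left-out and restricted settings, so their counts are not set against it. Leaving out each library in turn gave 87 to 111 higher and 26 to 44 lower, with 26 without Sample_2274_WT, and 74 of the 115 and 13 of the 40 calls remained in all 10 such fits. Thinning kept 51 of the 115 and 9 of the 40, and merging libraries within counting noise kept 103 and 32. Fewer counts, samples or peaks enter the thinned, left-out and restricted fits by construction; for DESeq2 the cause was not tested. The difference in share of counts ranged from 0.0140 to 0.108 percentage points without each library.

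Of the 66 peaks named by rule or called in an interval with 3 or more calls, 51 were called, and 26 stayed called in every alternative. Other peaks described above, such as those of Cd28, Rgs1, Arl4c and Akap11, are not among the 66. Over 1559 values of the 66 peaks under 24 alternative fits, 109 lost and 4 gained a call and 0 changed direction. No paired analysis was possible because the labels give no replicate number or pairing and the library numbers of the groups do not overlap. Depth limits weak peaks most: among the 492 peaks with 100 to 133 counts 8 of the 13 gains called were at least 2-fold.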
